A study of Mus musculus with 3 samples.

Results

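In mouse pluripotent stem cells, 139 genes stood at least 1 log2 unit (2-fold) away from a 2i culture in the same direction in both cultures that received Activin A. Of these, 67 were higher and 72 were lower in both Activin A cultures. They were selected among 14036 genes with an intensity above 50 on the brightest of 3 arrays, so 0.477% of the compared genes were higher in both and 0.513% were lower in both. The selection used the array differences themselves. The sizes given for these genes are therefore descriptions, and the count of members past 1 log2 unit is not a finding about them.

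The 3 cultures were of the EB3 mouse embryonic stem cell (mESC) line or derived from it, and all were grown in N2B27, a serum-free medium. The Activin+PD mESC culture received 20 ng/ml Activin A and 2 µM PD0325901 and was taken at 64 days. The 2i mESC culture received 2 µM CHIR99021 and 2 µM PD0325901 and was taken at 34 days. The mEpiSC culture, epiblast stem cells induced from EB3 mESCs, received Activin A at 20 ng/ml with bFGF at 12 ng/ml, and its time in culture is not given. Each culture was measured on 1 array, so no difference has a replicate check and none was tested. Both differences are taken from the same 2i array, so an error in a 2i value moves both in the same direction. Activin A given and CHIR99021 withheld separate both cultures from 2i together and cannot be told apart, and days in culture also differed between Activin+PD and 2i. PD0325901 was in the 2i and Activin+PD cultures and not in the mEpiSC culture.

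Activin A is a TGF-beta family ligand that binds activin receptors, among them ACVR1B, and leads to phosphorylation of SMAD2 and SMAD3. These act with SMAD4 and FOXH1 on genes that include the feedback inhibitors Lefty1 and Lefty2. CHIR99021 inhibits the kinase GSK3 and so stabilises beta-catenin, the effector of the Wnt pathway, while PD0325901 inhibits MEK, the kinase upstream of ERK. The 2i combination holds mESCs in the naive state that resembles the preimplantation epiblast, and Activin A with bFGF maintains the primed state that resembles the epiblast after implantation.

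The labelled states were seen in their markers. The pluripotency gene Pou5f1 had an intensity of 273 in Activin+PD, 302 in 2i and 336 in mEpiSC. Other core pluripotency genes were not all as even. Nanog had 5149, 4312 and 1082 and Sox2 had 2420, 2065 and 920, both lower in mEpiSC. Sall4 had 1387, 1246 and 1171, and Lin28a had 670, 588 and 1163. The naive marker Zfp42 had 2802, 2321 and 61.4. None of 21 naive genes was in the pattern, which held 0.477% of all compared genes as higher and 0.513% as lower. The naive genes had a median difference from 2i of 0.27 in Activin+PD and -3.09 in mEpiSC. Single naive genes departed from those medians, such as Calcoco2 with 1875, 441 and 33.2 and Klf5 with 1435, 1107 and 657. Background on each array was set from 1405 probe sets for receptors of odours and pheromones and lay at an intensity of 45.4, 48.1 and 47.5 in the same order. Of 11 compared feeder fibroblast markers none was in the pattern. They summed to an intensity of 2299.8 in Activin+PD, 3163 in 2i and 3153 in mEpiSC, most of it Vim, and Postn, Dcn and Lum were not above background on any array. Other markers of that list were higher in mEpiSC, namely Tagln with 65.4, 60.02 and 159, Twist1 with 73.3, 70.2 and 201.7 and Acta2 with 106, 100.3 and 194, and their part in the mEpiSC differences was not tested. In such cultures fewer cells of a kind and less RNA per cell cannot be told apart.

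The pattern took up unequal shares of the differences in each Activin A culture. In Activin+PD minus 2i, 193 genes were higher by at least 1 log2 unit (1.38%) and 115 were lower (0.819%). In mEpiSC minus 2i, 644 were higher (4.59%) and 705 were lower (5.02%). The 67 genes higher in both were 34.7% of those higher in Activin+PD and 10.4% of those higher in mEpiSC. The 72 genes lower in both were 62.6% of those lower in Activin+PD and 10.2% of those lower in mEpiSC.

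Among the 67 higher genes the median difference from 2i was 1.33 in Activin+PD and 1.81 in mEpiSC. Among the 72 lower genes it was -1.44 and -2.05. Over all compared genes the medians were -0.010 and 0.026. The mEpiSC array was the further from 2i for 53 higher and 56 lower genes, and by at least 1 log2 unit for 15 and 17. The Activin+PD array was the further by at least 1 for 3 higher and 2 lower genes. Among all compared genes, too, more were past 1 log2 unit in mEpiSC (4.59% higher, 5.02% lower) than in Activin+PD (1.38%, 0.819%). These counts therefore do not by themselves set the members apart. The Activin A arrays lay within 0.5 log2 units of each other for 30 higher and 35 lower genes. Many members sat close to the limit, since the smaller of the 2 differences was under 1.2 for 26 higher and 27 lower genes and reached 2 for 7 and 12. Otx2, Rassf4, Egln3 and Ppp2r2c were not above background in 2i, and Ppp2r2c was higher by at least 1.65 and 0.91, the second of which is under the limit. Of the lower genes 27 were not above background in mEpiSC, 8 of them also not in Activin+PD. For Serpinb9e, Magea4, Bhmt2, Sptlc3 and Cyp2c70 among these a bound was under 1.

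**Figure D1:**
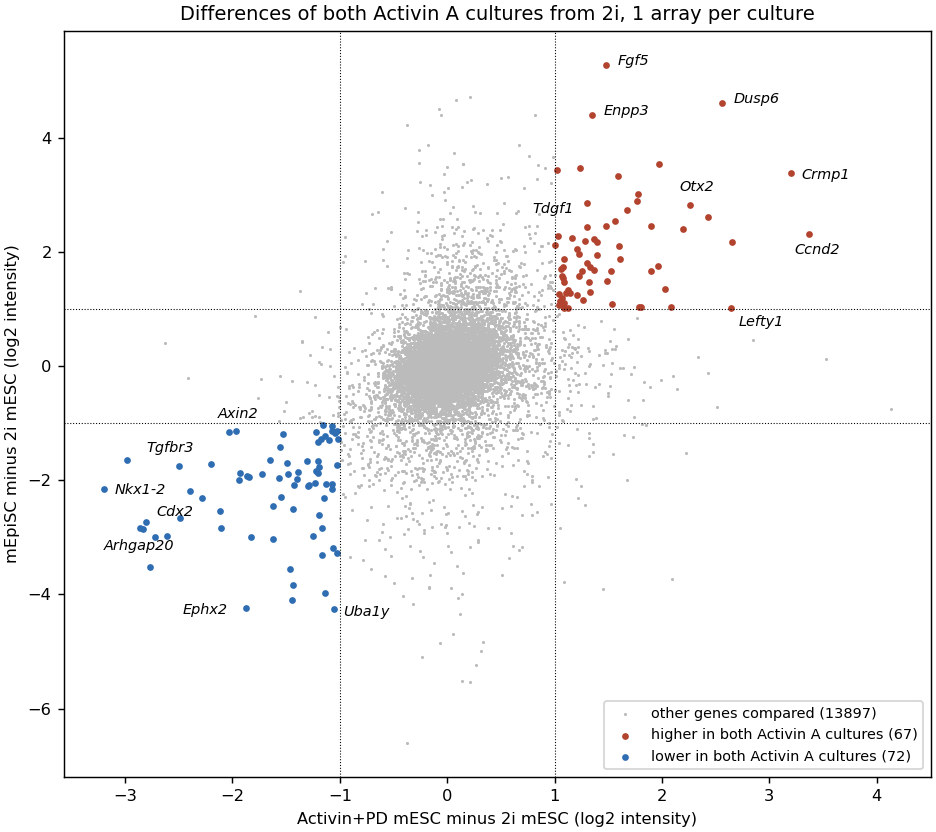
Each point is a gene, placed by its log2 intensity on the Activin+PD array minus 2i (horizontal) and on the mEpiSC array minus 2i (vertical), with dotted lines at 1 and -1. The 67 genes higher in both fill the upper right corner, where Fgf5 and Dusp6 lie highest, and the 72 lower in both fill the lower left.

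The genes nearest the limit differed little from their neighbours across it, and their differences are given as measured, also where an array was not above background. Cnn2, an actin-binding calponin, was just inside with differences of 1.001 and 2.12, and Tagln2, a related actin-binding protein, was just outside with 465.8 and 708.4 against 233.0 in 2i. Car13 (1.08 and 1.01) and Lefty1 (2.64 and 1.02) were the next members inside. Esrp1 (0.98 and 3.67) and Gm3594 (0.98 and 1.34) were the next outside. On the lower side Cyp2c70 (-1.01 and -1.28), Ntn1 (-1.03 and -1.72) and Klhl22 (-1.03 and -1.14) were just inside. Oas1g (-0.996 and -2.67), Ccdc141 (-0.99 and -1.32) and Slc35g1 (-0.98 and -1.46) were just outside.

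By the smaller of the 2 differences, the leading higher gene was Crmp1, which encodes a mediator of semaphorin signalling that binds microtubules in neurons. Its intensity was 718 in Activin+PD, 78.3 in 2i and 816 in mEpiSC, a difference of 3.20 and 3.38. Both Activin A arrays were far above 2i and near each other. Ccnd2, a D-type cyclin that drives entry into the cell cycle, had 876, 85.0 and 422, with differences of 3.37 and 2.31. It had the largest Activin+PD difference among the higher genes. The other D-type cyclins had another order, as Ccnd1 had 445, 927 and 827 and Ccnd3 had 707, 468 and 409.6. Ina, which encodes the neuronal intermediate filament protein alpha-internexin, had 987, 253 and 854. S100a10, whose product pairs with annexin A2 at the membrane, had 832, 244 and 1967, and was higher in mEpiSC than in Activin+PD.

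On the lower side, Pglyrp1, a secreted protein that binds bacterial peptidoglycan, had the largest smaller difference among the genes above background on all arrays. Its intensity was 101 in Activin+PD, 719 in 2i and 99.5 in mEpiSC. The Activin A arrays were alike and differed from 2i by -2.83 and -2.85. Arhgap20, which encodes a GTPase-activating protein, had 35.2, 255 and 35.6. It was not above background on either Activin A array, so it was lower than 2i by at least 2.49 and 2.43 and has no exact place in the order. Slc30a2, a zinc transporter, showed the same arrangement with 95.7, 465 and 94.4. The X-linked gene 1700013H16Rik had 64.9, 443 and 38.5. It was not above background in mEpiSC, so it was lower by 2.77 in Activin+PD and by at least 3.22 in mEpiSC. The 15 lower genes in the plot of leading genes were ordered by measured differences. Those not above background on an Activin A array, such as Dmgdh, Ct55 and Serpinb9e, have only bounds there and no exact rank, and Serpinb9e was lower by at least 0.82 and 0.75, under the limit itself.

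**Figure D2:**
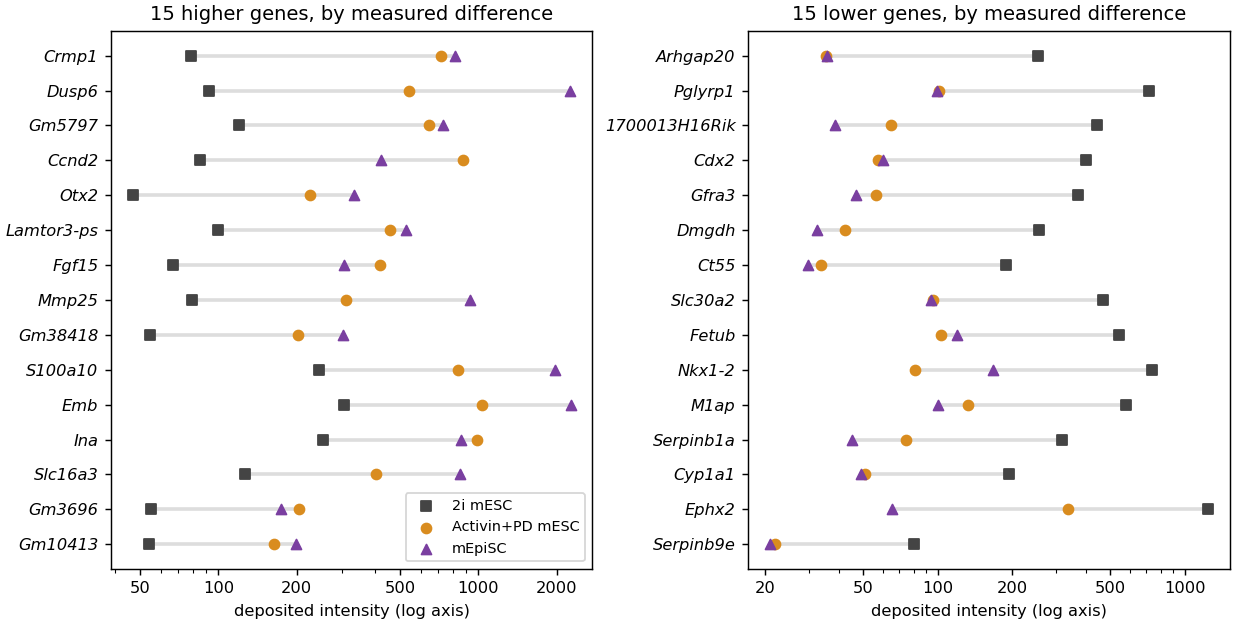
Deposited intensity (log axis) on the 3 arrays for the 15 higher and the 15 lower genes with the largest smaller-of-the-2 measured differences. The 2i value lies apart from both Activin A values in every row, and the Activin A values lie close together for Crmp1, Pglyrp1, Cdx2 and Slc30a2 and apart for Dusp6, S100a10 and Ephx2.

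Genes of the Activin/Nodal pathway were in the pattern on both sides. The co-receptor Tdgf1 (Cripto), which lets Nodal bind its receptors, had intensities of 1136 in Activin+PD, 462 in 2i and 2507 in mEpiSC. Its differences were 1.30 and 2.44. Lefty1, a secreted inhibitor of Nodal and a direct target of the pathway, had 1656, 265 and 536. It was highest in Activin+PD (2.64) and only just past the limit in mEpiSC (1.02). Pmepa1, a feedback inhibitor that binds SMAD proteins, had 227, 108 and 325. These were the members of the target and component lists that were higher in both.

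Receptors of the family were among the lower genes. Acvr1b, the type I receptor through which Activin signals, had 182 in Activin+PD, 419 in 2i and 167 in mEpiSC, with differences of -1.20 and -1.33. Tgfbr3 (betaglycan), a co-receptor that presents TGF-beta and inhibin, had 116, 657 and 195, with differences of -2.50 and -1.75. Both were lower on the Activin A arrays than on the 2i array, Tgfbr3 more so in Activin+PD. In all, 2 of 14 compared Activin/Nodal targets were higher in both and 0 were lower, with list medians of 0.23 and 0.09. The shares over all compared genes were 0.477% higher and 0.513% lower. Of 21 compared pathway components 1 was higher and 2 were lower, with medians of 0.04 and 0.16.

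Other targets of the pathway did not have the pattern. Lefty2, a Nodal inhibitor like Lefty1, had 1724, 369.9 and 129, higher than 2i in Activin+PD (2.22) and lower in mEpiSC (-1.52). Smad7, an inhibitory SMAD, differed by 1.05 and 0.16, and Skil, a SMAD corepressor, by 0.87 and 1.24. Cer1, a Nodal antagonist, was not above background on the Activin+PD and 2i arrays and had 854 in mEpiSC.

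Lower genes included established targets of Wnt and beta-catenin. Axin2, a negative feedback regulator and the usual readout of the pathway, had 177 in Activin+PD, 691 in 2i and 315 in mEpiSC, with differences of -1.96 and -1.13. Cdx2, a caudal-type homeobox factor of trophectoderm and posterior embryo, had 57.1, 399 and 60.2, with differences of -2.80 and -2.73. Cdx1, its paralog, had 51.9, 197 and 54.2. Both Cdx genes were near background in each Activin A culture. Nkx1-2, a homeobox gene of the caudal epiblast, had 80.6, 740.1 and 168 on its brighter probe set. This was the largest measured Activin+PD difference among the lower genes (-3.20).

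Of 25 compared Wnt targets and feedback genes these 4 were lower in both and 0 were higher, with list medians of -0.53 in Activin+PD and -0.16 in mEpiSC. Over all compared genes 0.513% were lower in both and 0.477% higher. The second probe sets of Axin2 (-1.03 and -0.83) and Nkx1-2 (-0.43 and -0.36) did not meet the limit in both comparisons. Several targets were lower only by the Activin+PD difference: Sp5 by -1.44 and -0.26, Ccnd1 by -1.06 and -0.16, and Wnt8a by -1.79 against 0.88 in mEpiSC. Notum, a Wnt deacylase, had the reverse arrangement with -0.14 and -2.81. In mEpiSC 6 genes of the list were lower by at least 1 and 2 were higher. The 2 higher were Myc (0.22 and 2.13) and Lgr5 (-0.22 and 2.03 as measured), which was above background only in mEpiSC. Among 23 compared pathway components the receptors Fzd7 and Fzd10 were on opposite sides. Fzd7 had 315 in Activin+PD, 129 in 2i and 595 in mEpiSC. Fzd10 had 62.5, 175 and 47.4, not above background in mEpiSC. Ctnnb1, which encodes beta-catenin, differed by -0.03 and -0.25.

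Cdx2 also stood on the trophectoderm list, and the other 12 compared genes of that list were not in the pattern. The pattern held 0.513% of all compared genes as lower and 0.477% as higher. Eomes had 116, 133 and 692, and Gata3 had 209, 71.0 and 87.8, while Elf5 was not above background on any array.

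**Figure D3:**
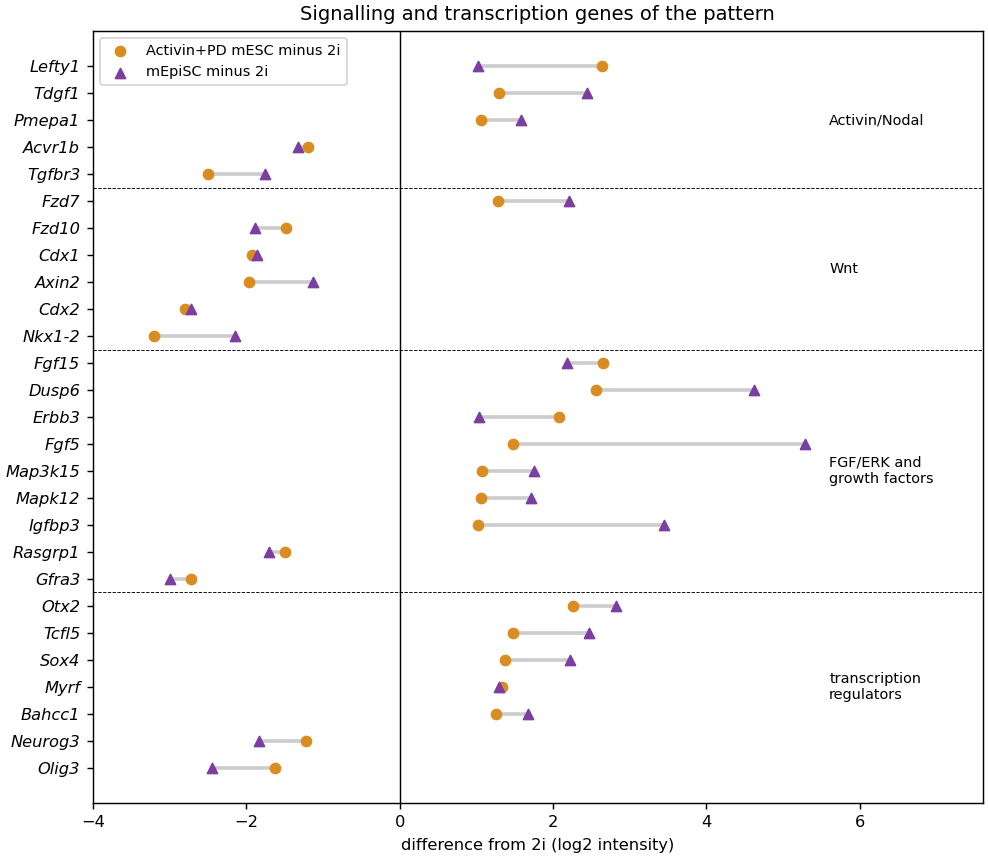
Differences from 2i in log2 intensity for the members with roles in Activin/Nodal, Wnt and FGF/ERK signalling and in transcription, circles for Activin+PD and triangles for mEpiSC, 1 array each. The symbols nearly coincide for Cdx1, Cdx2, Acvr1b and Myrf and lie far apart for Fgf5, Dusp6 and Igfbp3.

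Members with roles in FGF and growth factor signalling were on both sides. Dusp6, a phosphatase that inactivates ERK and is itself induced by ERK, had 543 in Activin+PD, 92.0 in 2i and 2255 in mEpiSC, with differences of 2.56 and 4.61. It was the 1 member of the pattern among 17 FGF/ERK feedback genes, whose medians were 0.11 and 1.47. Of all compared genes 0.477% were higher in both. Etv5, an ERK-induced factor, differed by 0.77 and 2.25, and Spry2, a feedback inhibitor, by -0.40 and 2.77. PD0325901 was present in Activin+PD and absent in mEpiSC.

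Of 13 compared FGF ligands and receptors, Fgf5 and Fgf15 were higher in both, against 0.477% of all compared genes. Fgf5, the classical marker of postimplantation epiblast, had 135 in Activin+PD, 48.4 in 2i and 1879 in mEpiSC. Its mEpiSC difference of 5.28 was the largest of the pattern, against 1.48 in Activin+PD. Fgf15, an FGF of the developing nervous system and gut, had 419, 66.9 and 304, and was the higher in Activin+PD. The second probe set of Fgf15 did not show the difference (0.13 and 0.09). Erbb3, a neuregulin receptor, had 609.7, 144 and 295. Igfbp3, which binds insulin-like growth factors, had 334, 165 and 1797. Gfra3, the artemin receptor, was lower, with 56.3, 370.2 and 46.5 and no signal above background in mEpiSC. Rasgrp1, an activator of Ras, was also lower, with differences of -1.50 and -1.70.

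Of 22 compared genes of the primed and formative epiblast 6 were higher in both and 0 were lower, with list medians of 0.48 and 1.89. Over all compared genes 0.477% were higher and 0.513% lower in both. The list was chosen with earlier results of these data known, so its count is only a description. The 6 higher genes were Otx2, Fgf5, Sox4, Igfbp3, Enpp3 and Fzd7. Otx2, a homeobox factor of the epiblast and anterior brain, had 225 in Activin+PD, 46.9 in 2i and 331 in mEpiSC. The 2i value was not above background, so the differences were at least 2.23 and 2.78. Sox4, an HMG-box factor of many progenitors, had 259.7, 100.4 and 469. Its second probe set differed by 0.40 and 1.02 as measured, above background only in mEpiSC. Enpp3, a membrane nucleotide pyrophosphatase, had 447, 175 and 3707. Several other primed genes were past 1 log2 unit only in mEpiSC: Dnmt3b, a DNA methyltransferase, by -0.60 and 2.05, Pou3f1 by 0.24 and 2.81, and Epha1 by -0.08 and 4.50. Hesx1, a homeobox gene, had 191.5 in Activin+PD, while 2i (35.5) and mEpiSC (32.9) were at background.

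The other transcription and chromatin regulators that were higher were Tcfl5, Myrf and Bahcc1, chosen for mention after their values were seen, as are all genes grouped by role below that no list held. The role groups were made from the members themselves, with no share over all genes to set them against. Tcfl5 had 323 in Activin+PD, 116 in 2i and 638 in mEpiSC, and Myrf had 265, 105 and 259. Olig3 and Neurog3, basic helix-loop-helix factors of neural and endocrine progenitors, were lower. Olig3 had 64.8, 199.7 and 36.5, and Neurog3 had 72.2, 168 and 47.0, neither above background in mEpiSC.

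Some higher genes act on actin, microtubules or intermediate filaments or on small GTPases: Crmp1, Ina, Kif21a, Asap2, Arhgap29, Parva, Pdlim7, Enc1, Slain1 and Cnn2. Arhgap29, which encodes a GTPase-activating protein, had 249 in Activin+PD, 104 in 2i and 233 in mEpiSC. Arhgap20, with a related activity, was on the lower side. Slain1, which promotes microtubule growth, had 209, 102 and 502 on its brighter probe set, while its second probe set differed by -0.13 and 0.64. Kif21a, a kinesin, had 143, 54.5 and 245.

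Laminin chains were split between the directions. Lamb1, the laminin beta 1 chain, had 532 in Activin+PD, 212 in 2i and 711 in mEpiSC. Lama1, the laminin alpha 1 chain that joins it in the basement membrane of the early embryo, had 69.2, 218 and 69.3, a difference of -1.65 in each. The gamma 1 chain gene Lamc1 differed by 0.19 and -0.28. Both chains also stood on the primitive endoderm list, of which 13 genes were compared and no other was in the pattern. Of 26 compared matrix and adhesion genes 1 was higher and 2 were lower, against 0.477% and 0.513% of all compared genes. The other lower gene was Cd109, a surface protein that binds TGF-beta, with 57.2, 452 and 145.

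Further surface genes were seen on each side. Dsp, desmoplakin of the desmosome, had 257 in Activin+PD, 86.9 in 2i and 508 in mEpiSC. Mmp25, a membrane-anchored metalloproteinase, had 310.1, 78.9 and 926. Lrp2, the endocytic receptor megalin, had 382, 109 and 225, and Gpc4, a glypican, had 317, 109.5 and 235, both higher in Activin+PD. The ligand Efnb2 was higher (1.09 and 1.48), whereas the ephrin receptor Epha4 was lower (-1.30 and -2.10). Ntn1, the guidance cue netrin 1, and Plet1, a surface protein of placental and epithelial progenitors, were lower as well, Plet1 with 121, 354 and 133.

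Transporters and channels were seen on both sides. Slc16a3, the lactate exporter MCT4, had 405 in Activin+PD, 127 in 2i and 848 in mEpiSC. Emb, embigin, which escorts monocarboxylate transporters to the membrane, had 1035, 303 and 2262. Both were higher in mEpiSC than in Activin+PD. Slc16a3 was the 1 member among 18 glycolysis and lactate genes, whose medians were 0.04 and 0.18. Of all compared genes 0.477% were higher in both. The amino acid transporters Slc38a1 (1.31 and 1.81) and Slc7a8 (1.07 and 1.19), the fatty acid transporter Slc27a2 (1.59 and 3.33) and the efflux pump Abcg2 (1.21 and 1.26) were higher. Abcg2 had 734, 317 and 757, near equal in both Activin A cultures. Kcnk1, a potassium channel, had 344, 139 and 1008. The haem-related transporter Flvcr2 (-1.57 and -1.96) and the bicarbonate transporter Slc4a5 (-1.23 and -2.05) were lower.

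Metabolic enzymes were among the lower and the higher genes. Ephx2, the soluble epoxide hydrolase, had 338 in Activin+PD, 1239 in 2i and 65.4 in mEpiSC, with differences of -1.87 and -4.24. Dmgdh, dimethylglycine dehydrogenase of choline breakdown, had 42.0, 256 and 32.5, so it was lower by at least 2.50 and 2.43. Cdo1, which oxidises cysteine, had 169.5, 522 and 63.7. The levels of Ephx2 and Cdo1 in Activin+PD lay between the other arrays, while Dmgdh was not above background in either Activin A culture. The cytochrome P450 genes Cyp1a1 (-1.94 and -1.99) and Cyp2b23 (-1.20 and -1.87), the glutathione transferase Gstm3 (-1.55 and -2.30) and the aldehyde oxidase Aox3 were lower too. Ak4, a mitochondrial adenylate kinase, had 236, 783 and 210.2. The higher enzymes were the carbonic anhydrases Car4 and Car13, the lysosomal acid lipase Lipa and the prolyl hydroxylase Egln3, which was not above background in 2i.

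Some lower genes are known from innate immunity, cell death and protease inhibition. Aim2, a sensor of cytosolic DNA, had 115 in Activin+PD, 312 in 2i and 54.8 in mEpiSC. Ripk3, a kinase of necroptosis, had 131, 290.1 and 58.3, and Ly96, the partner of TLR4, had 92.5, 195 and 94.0. Fetub, a fetuin that inhibits proteases, had 103, 541 and 119. Serpinb1a differed by -2.11 and was not above background in mEpiSC.

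Some lower genes are known from the germline, namely Ct55, M1ap, Zp3, Magea4, Rpl10l, Rec8 and Uba1y. Ct55, a cancer/testis antigen gene, had 33.7 in Activin+PD, 189 in 2i and 29.9 in mEpiSC, not above background in either Activin A culture. Rec8, a meiotic cohesin subunit, had 170.1, 355 and 39.1, and Rpl10l, a ribosomal protein gene of spermatocytes, had 243, 536 and 34.3. Both had intermediate values in Activin+PD. Uba1y, a Y-linked ubiquitin-activating enzyme gene, had 541, 1120.2 and 58.7, the largest mEpiSC difference among the lower genes (-4.26). The Y-linked Eif2s3y had 574, 535 and 345 and Uty had 234, 225 and 135, above background on every array. Of 17 compared genes on the germline list Ct55 and Rpl10l were lower in both and 0 were higher, with medians of 0.42 and -0.84. The shares over all compared genes were 0.513% lower and 0.477% higher. Others of that list were higher than 2i in Activin+PD and lower in mEpiSC, such as Sohlh2 with 1286, 470.5 and 31.3 and Dazl with 518, 213 and 39.5, neither above background in mEpiSC.

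The microRNA locus Mir302c was among the higher genes. The miR-302/367 cluster encodes microRNAs of the epiblast, and several of its 3p strands share their seed with the miR-290 family of mESCs. The array measured the hairpin locus and not the mature strands. The mature sequences of RefSeq (GRCm38.p6, plus strand of chromosome 3) are shown because the cluster is transcribed as 1 precursor and its members reached the limit unequally. The capitals mark the seed, bases 2 to 8.
miR-302c-3p: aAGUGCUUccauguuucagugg
miR-302b-3p: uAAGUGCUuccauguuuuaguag
miR-302d-3p: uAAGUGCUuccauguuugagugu
miR-302c-5p: gCUUUAACaugggguuaccugc
miR-367-3p: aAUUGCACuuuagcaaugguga
The listed miR-302b-3p and miR-302d-3p have the seed AAGUGCU, and miR-302c-3p, listed as starting 1 base later, has AGUGCUU. miR-367-3p has an unrelated seed. The Mir302c probe set had 116 in Activin+PD, 49.1 in 2i and 543 in mEpiSC, with differences of 1.24 and 3.47. Mir302a had 65.0, 43.9 and 439.6, and Mir302d had 46.8, 35.0 and 184. Mir302b had 33.4, 27.7 and 105, and Mir367 had 42.2, 35.7 and 146. None of these 4 was above background in 2i, and all were above it in mEpiSC. In Activin+PD, Mir302a, Mir302c and Mir302d were above background, and Mir302c alone met the limit in both comparisons. Mir290a had 502, 315 and 441.

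Of the higher genes 9 lay together at the start of chromosome 14, which held 12 higher genes in all. In all 15 of 494 compared genes of chromosome 14 were members (3.04%), 9 of them in this run. Over all compared genes 0.477% were higher and 0.513% lower in both. The run spans the first 14 compared genes of the chromosome and holds Gm5797, Lamtor3-ps, Gm38418, Gm3696, Gm10413, Gm10406, 4930555G01Rik, Gm2888 and 2610042L04Rik, the last also known as takusan. Gm5797 had 645 in Activin+PD, 120.0 in 2i and 732 in mEpiSC, and Lamtor3-ps had 455, 99.7 and 528. Gm2888 had the smallest differences, 1.13 and 1.02. For each of the 9 the Activin A arrays were closer to each other than to 2i. Of the other 5 genes of the run, Gm3159, Gm3173, Gm3317 and Gm3594 also had both measured differences above 0.7, a limit chosen after the values were seen. Gm3159 was not above background in 2i (44.3), so its place past 0.7 holds only as measured. The fifth gene, 1700110I01Rik, differed by 0.22 and 0.19.

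**Figure D4:**
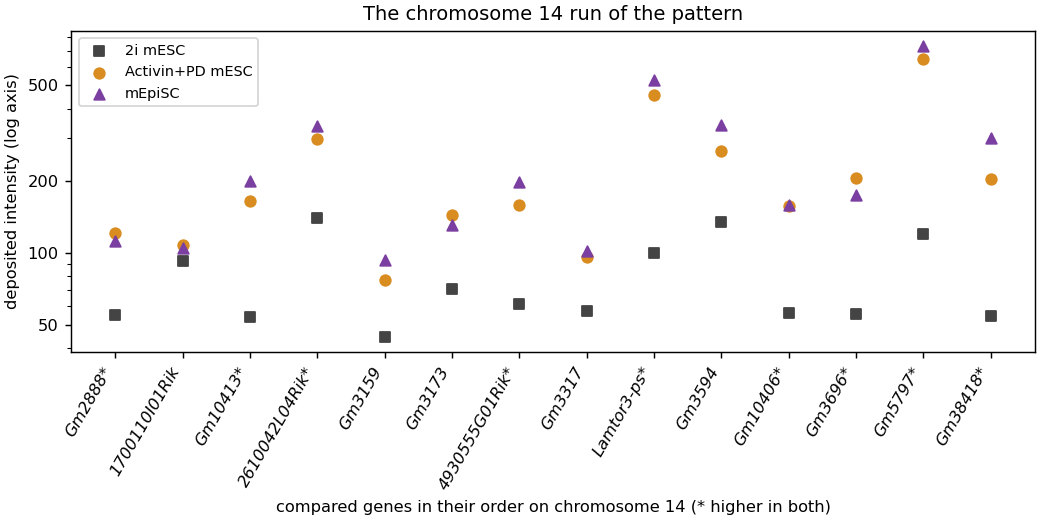
Deposited intensity (log axis) of the first 14 compared genes of chromosome 14 in their order along it, on the 3 arrays, with an asterisk at the 9 members. For 13 of the 14 genes both Activin A values lie more than 0.7 log2 units above 2i as measured, and for 1700110I01Rik the 3 values lie close together.

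Genes of the run resemble each other in sequence where compared and share probe sets, so how far each was measured by itself is uncertain. The starts of Gm5797 and Gm10413 are shown for that reason, from 250 bases before to 50 after the annotated start (RefSeq, GRCm38.p6), Gm5797 on the minus strand at chr14:7332346-7332645 and Gm10413 on the plus strand at chr14:3394843-3395142.
Gm5797: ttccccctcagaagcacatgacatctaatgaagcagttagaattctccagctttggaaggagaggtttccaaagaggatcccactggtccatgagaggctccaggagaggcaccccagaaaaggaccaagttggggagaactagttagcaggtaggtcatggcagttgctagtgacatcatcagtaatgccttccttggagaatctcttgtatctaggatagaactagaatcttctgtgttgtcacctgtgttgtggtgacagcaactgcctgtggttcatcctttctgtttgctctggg
Gm10413: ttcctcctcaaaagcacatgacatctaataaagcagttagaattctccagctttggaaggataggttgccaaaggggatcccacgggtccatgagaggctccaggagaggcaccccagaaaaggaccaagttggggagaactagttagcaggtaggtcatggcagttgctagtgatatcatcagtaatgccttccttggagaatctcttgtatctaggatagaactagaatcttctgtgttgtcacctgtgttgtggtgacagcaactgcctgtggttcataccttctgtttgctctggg
They were identical at 290 of 300 bases (96.7%). On the array 6 of the 9 genes were also listed on probe sets shared by several symbols. There were 13 such probe sets, and 13 of 13 had both differences of at least 1, from 1.46 to 2.60 in Activin+PD and from 1.18 to 2.83 in mEpiSC. The 9 genes may therefore not be 9 separate measurements.

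Promoter sequences of RefSeq were matched for 109 of the 139 members, 51 higher and 58 lower, and searched on both strands for 4 motifs in the same 300-base window. The TCF/LEF motif, CTTTGAT or CTTTGAA, was in 2 of 51 higher (3.92%) and 5 of 58 lower windows (8.62%), against 6.83% of 10923 compared genes. The 5 lower genes were 1700097N02Rik, Dnah8, Gstm3, Ripk3 and Sptlc3, none of them a Wnt target described above. The OTX motif TAATCC was in 2 of 51 and 2 of 58 (3.45%), against 6.94%. The FOXH1 motif, AATCCACA or AATACACA, and the SMAD palindrome GTCTAGAC were in none, against 1.34% and 0.320%. These shares say only whether the letters are in the window. Otx2 itself was one of the higher genes with an OTX motif, in capitals in its window on the minus strand at chr14:48665060-48665359, where the other strand reads TAATCC.
Otx2: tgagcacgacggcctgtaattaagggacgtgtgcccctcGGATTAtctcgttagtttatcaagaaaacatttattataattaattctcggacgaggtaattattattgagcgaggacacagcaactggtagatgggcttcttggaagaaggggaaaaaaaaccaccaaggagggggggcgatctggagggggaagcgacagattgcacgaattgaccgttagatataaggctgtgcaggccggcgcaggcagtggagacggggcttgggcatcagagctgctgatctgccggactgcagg

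For 12 members a second probe set named the same gene, which gives another measurement on the same arrays. Of these 12, 9 were above an intensity of 50, 2 were not above background on any array, and 8 had both differences in the member's direction. Only that of 4930555G01Rik, in the chromosome 14 run, met the limit on its own (1.36 and 1.44 as measured, with 2i not above background). The second probe set of Axin2 had 115, 236 and 133, with differences of -1.03 and -0.83. Those of Fgf15 (0.13 and 0.09), Sort1 (-0.03 and -0.04), Emb (-0.04 and 0.67), Slain1 (-0.13 and 0.64) and C2cd4b (0.04 and -0.09) did not show the difference. Those of Dusp6 and Slc27a2 were not above background. Nkx1-2 differed by -0.43 and -0.36 on its second probe set, against -3.20 and -2.14 on the first. Over 620 genes with several probe sets above background, the standard deviation between probe sets of a gene was 0.24 for Activin+PD minus 2i and 0.35 for mEpiSC minus 2i, which covers probe error and not the variation between cultures.

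Some lists had no gene in the pattern. They were core pluripotency (13 compared genes), primitive streak and mesendoderm (17), 2-cell-like (6), cholesterol synthesis (13), BMP targets (12) and housekeeping (10). With 0.477% of all compared genes higher and 0.513% lower, a count of 0 on lists this short says little about them. Utf1 of the core list came near the limit (0.95 and 1.41). The primitive streak genes had medians of -0.03 in Activin+PD and 1.76 in mEpiSC and the cholesterol synthesis genes 0.45 and 1.04. The housekeeping genes had -0.10 and 0.10. Of the 139 members 30 were on at least 1 list and 109 were on none.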

How the data were processed

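Affymetrix Mouse Gene 2.0 ST arrays measured total RNA of 3 cultures, 1 array per culture. The authors deposited 1 intensity per probe set and array on a linear scale, made with RMA per the submitters' processing notes and with GeneSpring GX 11.5 per the series' design text. RMA quantile-normalises the arrays, which hides any difference in RNA content between cells. It was not stated whether a constant was added to the intensities before deposit. If so, differences of dim genes are understated.

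Differences were log2 of the deposited intensity of an Activin A array minus that of 2i. Of 33793 probe sets, 23521 had 1 symbol, 1814 had several and 8458 were not listed in the platform annotation. A gene was its single-symbol probe set of highest mean, which gave 22180 genes. For 23328 probe sets the symbol was brought up to date by Entrez identifier. Background was the 95th percentile of receptor probe sets, and "at least" gives the bright array against background on the dim one. A member had both differences at least 1 in size and of 1 sign, and an intensity above 50 on its brightest array.

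Named are the 15 leading members per direction, members of 23 gene lists, and 3 genes on each side of the limit. Of 408 listed symbols 381 were on the array, and 1 list is not reported here. The members, lists and role groups were chosen with earlier results of these data known. Counts of members on a list are therefore descriptions. Over all compared genes 0.477% were higher and 0.513% lower in both. The number of arrays, 1 per group, limits the precision, so no error, p-value or fit without a replicate could be computed. Alternatives changed the intensity filter, the fold, the handling of probe sets and of values below background, a subtracted constant, and the scaling. Python 3.11.15, pandas 2.3.3, numpy 2.4.6, Biopython 1.88 and matplotlib 3.10.9 were used. No genome was used here.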

Additional observations from a re-analysis of the deposited data

Results flagged for a closer look

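Some probe sets outside the genes compared also met the limits in both Activin A cultures. Of 1131 probe sets with several symbols and an intensity above 50, 27 were higher in both and 0 were lower, and 13 of the 27 list a gene of the chromosome 14 run. Of 2755 such probe sets that are not listed in the annotation, 29 were higher and 4 were lower. They carry no single gene name here and were left out of the report's counts. No group holds enough arrays for a check of outlying samples.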

How the results depend on the processing

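The count of genes moved most with the fold required. At 1.5-fold in both comparisons 219 genes were higher and 224 lower, and at 3-fold 17 and 25. With 16 subtracted from every intensity, which widens differences of dim genes, 102 were higher and 110 lower. Under the other alternatives the counts stayed between 58 and 67 higher and between 67 and 74 lower. The lowest higher count, 58, left out the chromosome 14 run, an alternative chosen after seeing the data. Of the 67 higher genes 60 were kept under all 3 rescalings and of the 72 lower genes 72. Centring the arrays on their medians removed Erbb3, Gm2888, Lefty1, Car13 and Cnn2 from the higher genes. Requiring every bright probe set of a gene to meet the limit removed Fgf15, Emb, Sox4, Sort1, Slain1, Nkx1-2, Axin2 and Alox5ap. Raising values below background to it removed Ppp2r2c, Serpinb9e, Magea4, Bhmt2, Sptlc3 and Cyp2c70. Of 300 values for 50 named genes, 278 moved by less than 0.35 log2 units, the larger of the spreads between probe sets, 22 moved further and 0 changed direction. No paired analysis was possible because each group has 1 array, and no array could be left out. The signal limits dim genes: 27 of the 72 lower genes were not above background in mEpiSC and 8 of these also not in Activin+PD, so their differences are lower bounds.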

Other observations

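The members were spread over the chromosomes. Beside chromosome 14, chromosome 13 held 6 higher and 4 lower members among 505 compared genes (1.98%). The X chromosome held 4 and 6 among 476 (2.10%). Chromosomes 4, 16 and 18 held 0 higher members and 3, 3 and 5 lower ones, among 906, 407 and 333 compared genes. Over all compared genes 0.477% were higher and 0.513% lower in both. Of the higher genes 65 of 67 and of the lower genes 71 of 72 were protein-coding in the annotation. The non-coding members beside Mir302c were Platr22, with intensities of 106 in Activin+PD, 49.5 in 2i and 107 in mEpiSC, and 1700097N02Rik, with 453, 1251 and 107.

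Some members outside the groups described above were seen on each side. Mcc, a lower gene, had 145 in Activin+PD, 593 in 2i and 268 in mEpiSC. Syna, the envelope-derived fusogen syncytin A of the placenta, had 52.2, 115 and 49.1. Mest, an imprinted gene of mesoderm, and Bex1, a brain-expressed X-linked gene, were higher in both by narrow margins. Mest had 1651, 799 and 1770.3, and Bex1 had 2413, 1105 and 2774.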
